A study of Mus musculus with 82 samples.

Results

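Gene expression of naive CD4 T cells, as the labels give the cell type, was compared between the 2 arrays titled DBA2 and the 5 arrays of C57BL/6J mice. Members were chosen by their labels alone: the 2 arrays whose title reads DBA2, and the 5 arrays whose background label is C57BL/6J, together 7 of the 82 arrays of the series. The DBA2-titled arrays carry the background label DBA/1LacJ, so title and label name different DBA substrains, and which of them the mice were is not settled here. All mice were male and untreated, and those of these 7 arrays were of unmodified inbred strains. The labels give an age of 6 weeks, and the series description gives 5 weeks. The description also names granulocytes of bone marrow, whereas the labels give sorted CD4 T cells, and the labels were followed. Splenocytes were sorted as CD3+CD4+CD62L+ cells that lacked CD25 and further exclusion markers, among them CD8, CD11c, CD49b, Gr1 and Ter119, from pools of 2 to 3 mice. Each pool was hybridised to 1 Affymetrix ST1.0 array, which reads each transcript with many short probes and gives 1 intensity per probe set. The other 75 arrays came from 38 further strain groups, among them KK.Cg-Ay/J and BTBR T+ tf/J, whose names carry allele symbols.

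C57BL/6J is the strain of the mouse reference genome and the usual control strain in immunology. DBA strains belong to a different and older inbred lineage, and mice of both lineages have long been crossed to map traits to the genome. Naive CD4 T cells leave the thymus with a rearranged T cell receptor, circulate through spleen and lymph nodes guided by CD62L and CCR7, and live on signals from interleukin 7 and self peptides. Resting T cells also hold a low level of many interferon-induced defence genes, several of which sit in clusters of gene copies that differ between mouse strains.

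The promoters of 4 interferon-related genes with the largest decreases in 2 such clusters are shown first, since these genes recur below. Each is the RefSeq window of 300 bases in build GRCm38.p6, with 250 bases before the start site and 50 after it, 5′ to 3′ on the strand of the gene. Capitals mark GAAANNGAAA, the core of the element bound by interferon regulatory factors, searched on both strands.
Trim12a, chr7:104315446-104315745, minus strand: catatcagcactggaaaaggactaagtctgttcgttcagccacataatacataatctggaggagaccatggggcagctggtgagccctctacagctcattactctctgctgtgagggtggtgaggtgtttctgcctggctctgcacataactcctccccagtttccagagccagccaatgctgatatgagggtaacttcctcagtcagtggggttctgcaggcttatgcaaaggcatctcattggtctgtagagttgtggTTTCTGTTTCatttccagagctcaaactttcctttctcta
Trim30d, chr7:104507800-104508099, minus strand: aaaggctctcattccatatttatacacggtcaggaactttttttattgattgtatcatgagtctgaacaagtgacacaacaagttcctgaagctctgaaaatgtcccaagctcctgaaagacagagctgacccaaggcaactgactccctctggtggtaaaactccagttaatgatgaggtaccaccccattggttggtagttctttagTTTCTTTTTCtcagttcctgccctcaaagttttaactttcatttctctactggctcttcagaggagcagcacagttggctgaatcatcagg
Ifi213, chr1:173599223-173599522, minus strand: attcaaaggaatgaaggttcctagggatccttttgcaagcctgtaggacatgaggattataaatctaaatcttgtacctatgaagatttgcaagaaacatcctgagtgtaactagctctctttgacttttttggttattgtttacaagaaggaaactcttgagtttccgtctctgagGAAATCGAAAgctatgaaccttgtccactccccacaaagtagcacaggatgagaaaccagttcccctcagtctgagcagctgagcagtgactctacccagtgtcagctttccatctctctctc
Ifi208, chr1:173673415-173673714, plus strand: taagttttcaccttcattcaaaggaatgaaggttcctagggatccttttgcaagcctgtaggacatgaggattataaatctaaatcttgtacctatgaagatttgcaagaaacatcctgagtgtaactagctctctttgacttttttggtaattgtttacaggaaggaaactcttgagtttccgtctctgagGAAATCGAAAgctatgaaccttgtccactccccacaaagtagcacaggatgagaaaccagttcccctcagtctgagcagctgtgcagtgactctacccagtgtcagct
Each of these windows holds 1 match. The match of Ifi213 begins 73 bases before the start site and that of Ifi208 58 bases before it, inside a stretch that both genes share. The match of Trim30d begins 41 bases before the start site, and that of Trim12a 10 bases after it. Among all 32851 windows, 3.44 percent hold the motif. A window was given for 15 of the 19 genes of the 4 interferon-related lists that fell in DBA2-titled arrays, and 10 of these 15 hold the motif, against 16 of the 31 other members with a window. The match is a description of the reference sequence.

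The arrays were alike in median intensity, with 1 exception. The median intensity was 104.1 and 117.2 on the DBA2-titled arrays, against 105.3, 109.6, 102.4, 110.5 and 141.8 on the C57BL/6J arrays. The last of these, C57BL/6J array 5, had the highest median of the series, 102.1 to 141.8, and stood apart from the other 4. The DBA2-titled arrays differed from each other by at least 2-fold at 24 of 24922 probe sets. Pairs of C57BL/6J arrays did so at 3 to 20 probe sets, and at 153 to 731 where array 5 was in the pair. The SD of the log2 differences was 0.278 between the DBA2-titled arrays. It was 0.171 to 0.209 between pairs of C57BL/6J arrays, and 0.291 to 0.388 where array 5 was in the pair. Averages below are geometric means over the arrays of a group. The marker genes of the sort were bright in both groups: Cd3e averaged 6860 in DBA2-titled and 6290 in C57BL/6J arrays, and Cd4 5370 in DBA2-titled and 4910 in C57BL/6J arrays. Xist was dim on every array (34.1 and 32.7 in DBA2-titled, 32.6 to 49.2 in C57BL/6J), and the Y-linked genes Eif2s3y, Kdm5d and Uty were measured on all of them.

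The DBA2-titled arrays differed from C57BL/6J at 2591 of 24922 probe sets, 10.4 percent of those tested, by limma with Benjamini-Hochberg adjusted p under 0.05. Of these, 760 were higher in DBA2-titled arrays (3.05 percent of all) and 1831 lower (7.35 percent). The share of lower calls was 70.7 percent, and it was 58.2 percent among 1665 calls once each array was centred on its median and 53.2 percent among 3116 calls after quantile normalization. A difference of at least 2-fold was found at 237 called probe sets, 69 higher and 168 lower. The arrays of the groups did not overlap at 2500 of the called probe sets, and at 23.2 percent of all probe sets. Without array 5 of C57BL/6J the count was 2576. It fell to 1300 without DBA2-titled array 1 and to 1269 without DBA2-titled array 2.

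The largest decreases were in defence, T cell receptor and membrane genes. Trim12a, a tripartite motif gene of the cluster that holds the antiviral Trim5 relatives, had intensities of 43.7 and 37.4 in DBA2-titled arrays, against 1590, 1460, 1680, 1460 and 1480 in C57BL/6J arrays. It was far lower in DBA2-titled cells (log2 difference -5.25, SE 0.15, adjusted p = 8.07e-32). Both DBA2-titled arrays lay in the dim range of the array and all C57BL/6J arrays well above the median of all values, 113. Trim30d of the same cluster had 23.2 and 26.3 in DBA2-titled arrays, against 374, 318, 461, 388 and 317 in C57BL/6J arrays (log2 difference -3.90, SE 0.19, adjusted p = 2.04e-22). Its DBA2-titled values were again dim. The 15 largest increases and decreases were named among genes whose groups do not overlap, so the lack of overlap is no finding in them. For both genes the promoter printed above holds the motif.

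Atp8b4, a lipid flippase of the P4-ATPase family, had 45.9 and 47.9 in DBA2-titled arrays, against 661, 654, 694, 621 and 645 in C57BL/6J arrays (log2 difference -3.80, SE 0.16, adjusted p = 1.31e-25). The spread within each group was small beside this gap. Trav14-1, a variable segment of the T cell receptor alpha chain, had 57.9 and 83.0 in DBA2-titled arrays, against 1230, 989, 1170, 1210 and 1260 in C57BL/6J arrays (log2 difference -4.08, SE 0.26). A second probe set of the same gene differed by only -0.43. Trav12-2, another such segment, stood at 26.9 and 25.6 in DBA2-titled arrays, against 208, 98.5, 172, 175 and 168 in C57BL/6J arrays. Variable segments have close copies in the genome, so which copy these probe sets read is uncertain, as it is for Trim, Ifi200 and Gbp family members and for the vomeronasal receptor gene Vmn2r96.

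Enzymes were among the other large decreases. Acadl, the mitochondrial long-chain acyl-CoA dehydrogenase, had 44.7 and 41.2 in DBA2-titled arrays, against 351, 280, 365, 286 and 285 in C57BL/6J arrays (log2 difference -2.86, SE 0.18). Arsb, the lysosomal arylsulfatase B, had 136 and 107 in DBA2-titled arrays, against 564 to 682 in C57BL/6J arrays (log2 difference -2.37), and its second probe set differed by -1.75. Cyp2r1, a vitamin D 25-hydroxylase, had 37.9 and 24.6 in DBA2-titled arrays, against 124 to 207 in C57BL/6J arrays. Each of them was several-fold brighter in C57BL/6J arrays. A pair of peptidases fell likewise: Cpm, carboxypeptidase M, averaged 132 in DBA2-titled and 804 in C57BL/6J arrays, and Rnpep, aminopeptidase B, averaged 79.3 in DBA2-titled and 400 in C57BL/6J arrays. Rab6b, a small GTPase of Golgi traffic, fell by 2.15 on the log2 scale and Vmn2r96 fell by 2.56. With an offset of 32 before log2 the difference was -1.64 for Vmn2r96 and -1.72 for Trav12-2.

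The largest increases were led by a protease and a scavenger receptor. Ctse, the aspartic protease cathepsin E, had 5590 and 5740 in DBA2-titled arrays, against 853, 577, 618, 720 and 673 in C57BL/6J arrays, which is 8.31-fold higher (log2 difference 3.06, SE 0.12, adjusted p = 6.27e-26). It was above the median of all intensities in both groups. Stab2, a scavenger receptor that takes up hyaluronan, had 608 and 763 in DBA2-titled arrays, against 86.3, 83.9, 73.5, 85.5 and 104 in C57BL/6J arrays (log2 difference 2.98, SE 0.11, adjusted p = 3.2e-27). The C57BL/6J values lay below the median of all intensities and the DBA2-titled values well above it. Mtmr9, a myotubularin-related protein without phosphatase activity, had 3890 and 3660 in DBA2-titled arrays, against 832, 833, 958, 752 and 876 in C57BL/6J arrays (log2 difference 2.15, SE 0.11), and its second probe set differed by 2.12.

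Other increases were in genes that were dim in C57BL/6J. Nlrp1a, an inflammasome sensor, had 185 and 161 in DBA2-titled arrays, against 27.4, 29.2, 24.5, 30.9 and 46.4 in C57BL/6J arrays (log2 difference 2.48, SE 0.18). Prelid2, of a family of mitochondrial lipid transfer proteins, had 255 and 221 in DBA2-titled arrays, against 30.1 to 48.9 in C57BL/6J arrays. Pls3, the actin-bundling plastin 3, had 120 and 114 in DBA2-titled arrays, against 27.7 to 37.2 in C57BL/6J arrays, a difference of 1.92 that shrank to 1.24 with an offset of 32 added before log2. All of these were dim in C57BL/6J arrays and in the middle range in DBA2-titled arrays. Sfi1, a centriole protein, averaged 1360 in DBA2-titled and 373 in C57BL/6J arrays, and Vcl, the adhesion protein vinculin, averaged 166 in DBA2-titled and 60.1 in C57BL/6J arrays. Litaf, a lysosomal membrane protein, differed by 1.47, but its DBA2-titled values of 620 and 437 were spread more widely than its 5 C57BL/6J values, 171 to 204. A probe set annotated to Kcnma1 differed by 2.62, or 1.60 with the offset, yet none of the 39 probe sets with the nearest IDs was annotated to its chromosome, so its gene name is in doubt.

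**Figure D1:**
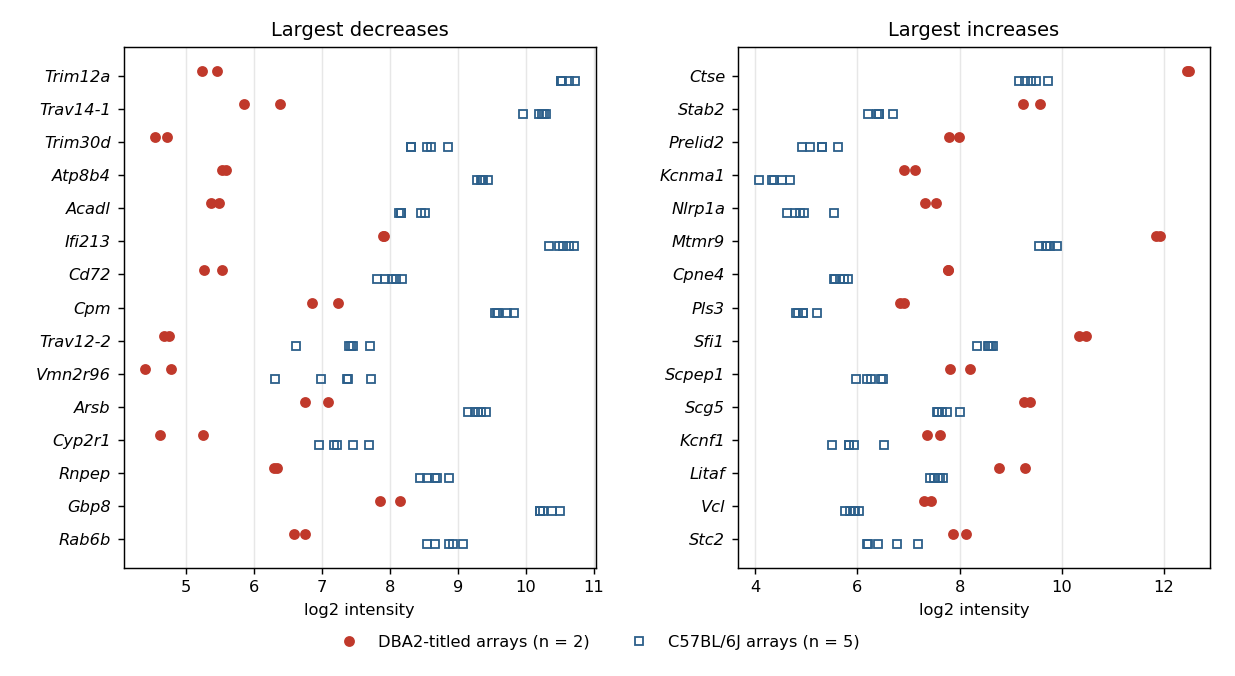
Log2 intensity (horizontal axes) of the 15 genes with the largest decreases (left) and the 15 with the largest increases (right) in DBA2-titled arrays, 1 point per array, with filled circles for the 2 DBA2-titled arrays and open squares for the 5 C57BL/6J arrays. Genes were chosen for groups that do not overlap, and the differences run from -5.25 in Trim12a to 3.06 in Ctse.

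In 4 lists of interferon-related defence genes more members fell than rose in DBA2-titled cells against C57BL/6J, though 28 of 38 type I interferon response genes and 8 of 10 guanylate-binding proteins and related GTPases did not pass the test. Against the mean of the other strains none of the Ifi200, Trim or GTPase members was higher, and 2, 4 and 4 in that order were lower. A mean can be raised by a few bright groups. Trim12a averaged 40.4 and Trim30d 24.7 in DBA2-titled arrays, near the medians of the other groups, 52.2 and 29.2. For each of them 25 of the 38 groups lay on the DBA2-titled side. Gbp8, in contrast, averaged 255 in DBA2-titled arrays, against a median of 997. All lists were read with 1 probe set per gene, on which basis 10.2 percent of 19752 genes were called, 2.94 percent higher and 7.27 percent lower, beside a median difference of -0.018 over all probe sets. In the Ifi200 family, sensors of DNA in cytosol and nucleus, 5 of the 8 listed members that were measured fell and none rose, with a list median of -0.61. The 5 became 3 without DBA2-titled array 1. Ifi207, which the list did not hold and which was chosen after its value was seen, rose by 0.53. In the cluster of Trim5 and Trim30 relatives, 4 of 7 fell and none rose (median -0.52): Trim30a fell by 0.55 and Trim34a by 0.52 beside the much larger decreases of Trim12a and Trim30d. Trim12c, a close relative of Trim12a, had 375 and 353 in DBA2-titled arrays, against 300 to 377 in C57BL/6J arrays, and did not pass the test.

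Within the Ifi200 family, Ifi213 had 241 and 237 in DBA2-titled arrays, against 1670, 1300, 1430, 1500 and 1590 in C57BL/6J arrays (log2 difference -2.65, SE 0.21, adjusted p = 1.73e-14). Ifi208 had 463 and 418 in DBA2-titled arrays, against 1800, 1300, 1830, 1840 and 951 in C57BL/6J arrays (log2 difference -1.77, SE 0.22). C57BL/6J array 5 was the lowest of its group for Ifi208 and still above both DBA2-titled arrays. Ifi209 fell by 1.18 and Ifi203 by 0.70, the second of which did not pass without DBA2-titled array 1 (adjusted p = 0.247). Aim2, which assembles an inflammasome on cytosolic DNA, fell by 0.53. Ifi214 (-0.52, adjusted p = 0.203), Ifi202b and Ifi205 did not pass, and the last 2 were dim in both groups.

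Of 10 measured guanylate-binding proteins and immunity-related GTPases, which act against microbes inside cells, 2 fell and none rose. Gbp8 had 282 and 230 in DBA2-titled arrays, against 1220, 1340, 1450, 1180 and 1180 in C57BL/6J arrays (log2 difference -2.32, SE 0.20, adjusted p = 2.41e-13). Gbp4 had 1060 and 1040 in DBA2-titled arrays, against 1530 to 1900 in C57BL/6J arrays (log2 difference -0.75). The remaining 8, among them Gbp2b, Gbp3 and Irgm1, lay between -0.40 and 0.06.

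Of 38 type I interferon response genes, 8 fell and 2 rose, with a median of -0.19. Oas2, an enzyme that makes the activator of RNase L, had 327 and 325 in DBA2-titled arrays, against 460, 538, 710, 595 and 594 in C57BL/6J arrays (log2 difference -0.82, adjusted p = 0.00364). Ifit1 fell by 0.77, Eif2ak2, the kinase PKR, by 0.72, Ifih1, the RNA sensor MDA5, by 0.71, and Ifit2 by 0.67. Xaf1 had 738 and 655 in DBA2-titled arrays, against 416 to 509 in C57BL/6J arrays, and rose by 0.58, as Ifi27l2a did by 0.59, a pair named after their values were seen. The regulators of the response did not pass: Irf7 differed by -0.16, Irf9 by -0.07, Stat2 by 0.15 and the receptor gene Ifnar1 by -0.19. Against the mean of the other strains the same list had 6 members higher and 1 lower, with a median of -0.01. The count of 8 that fell against C57BL/6J became 5 with arrays centred, 3 without DBA2-titled array 1 and 1 without DBA2-titled array 2, and the 2 that rose became 0 without array 1 and 1 without array 2. Of the named members, Oas2 was lost without either array (adjusted p = 0.0562 and 0.0604), Ifit1 also with centring (adjusted p = 0.063), Ifih1 with centring and without array 2, and Eif2ak2 without array 2. In the Schlafen family, regulators of T cell quiescence, Slfn8 fell by 0.93 and Slfn5 by 0.66 while Slfn3 rose by 0.76, of which Slfn8 did not pass without DBA2-titled array 1 (adjusted p = 0.122) and Slfn5 did not pass with centring (adjusted p = 0.0583) or without either DBA2-titled array.

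**Figure D2:**
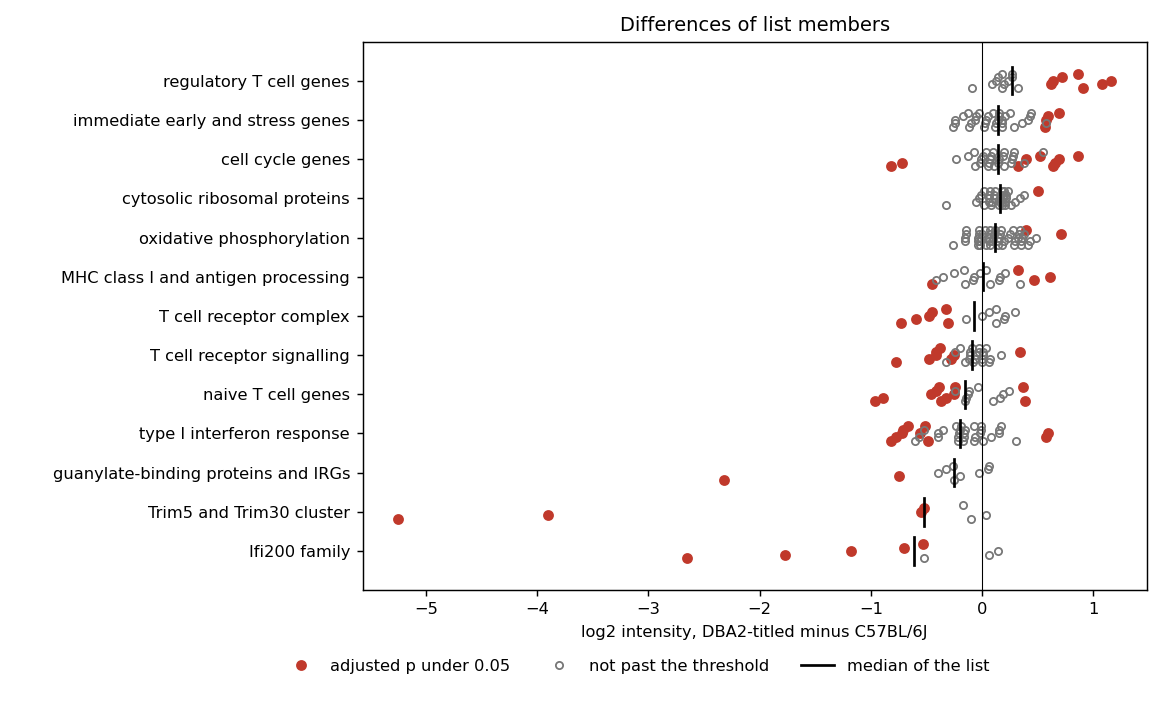
Log2 difference in intensity, DBA2-titled minus C57BL/6J (horizontal axis), of each measured member of 13 gene lists, with filled points for adjusted p under 0.05, open points for the others and a black bar at the median of each list. The median of the regulatory T cell list lies at 0.27 and that of the Ifi200 family at -0.61.

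Genes typical of regulatory T cells were higher in DBA2-titled cells. Of 18 measured members 7 rose and none fell, beside 2.94 percent of all genes higher, and the list median was 0.27. Foxp3, the transcription factor that defines these cells, had 769 and 739 in DBA2-titled arrays, against 370, 550, 430, 491 and 475 in C57BL/6J arrays (log2 difference 0.72, SE 0.17, adjusted p = 0.00336). Lrrc32, which holds latent TGF-beta on the surface of regulatory T cells, had 519 and 470 in DBA2-titled arrays, against 183, 250, 222, 212 and 242 in C57BL/6J arrays (log2 difference 1.16, SE 0.14, adjusted p = 2.44e-08). Both DBA2-titled arrays lay above all C57BL/6J arrays for these genes, but most called probe sets show no overlap. Gpr83, an orphan receptor of regulatory T cells, rose by 1.08, Nrp1, a semaphorin receptor, by 0.91, Capg, an actin-capping protein, by 0.86, and Ctla4, an inhibitory receptor, by 0.64. Foxp3 and Ctla4 lie outside the naming rule and were chosen after their values were seen.

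Il2ra encodes CD25, which the sort excluded on the cell surface. Its intensity was 1000 and 909 in DBA2-titled arrays, against 510, 791, 559, 624 and 657 in C57BL/6J arrays (log2 difference 0.62, adjusted p = 0.0223), and it did not pass without either DBA2-titled array (adjusted p = 0.214 and 0.095). Il2rb, the next chain of the same receptor, had 803 and 692 in DBA2-titled arrays, against 292, 458, 313, 344 and 326 in C57BL/6J arrays (log2 difference 1.12, SE 0.18). Ikzf2, Ikzf4, Tnfrsf18, Tnfrsf4, Tigit and Izumo1r did not pass, with differences from 0.09 to 0.27. The count stayed at 7 with arrays centred and without C57BL/6J array 5, and was 4 without DBA2-titled array 1 and 6 without array 2. The mean log2 intensity of the list was 8.18 and 8.08 on DBA2-titled arrays, against 7.51, 7.79, 7.63, 7.67 and 7.85 on C57BL/6J arrays. In sorted pools of cells, more cells of a type and more RNA per cell cannot be told apart.

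Several T cell identity genes were lower in DBA2-titled cells. Of 21 naive T cell genes 9 fell and 2 rose, beside 7.27 percent of all genes lower and 2.94 percent higher. Il7r, the interleukin 7 receptor that keeps naive cells alive, had 2880 and 3190 in DBA2-titled arrays, against 5640, 5630, 5610, 5560 and 5700 in C57BL/6J arrays (log2 difference -0.89, SE 0.11, adjusted p = 5.42e-08). The C57BL/6J arrays differed little among themselves and lay far above both DBA2-titled arrays. Ccr9, a homing receptor for gut and thymus, had 88.6 and 119 in DBA2-titled arrays, against 166 to 249 in C57BL/6J arrays, and did not pass without DBA2-titled array 1 (adjusted p = 0.0624). Ccr7 averaged 6820 in DBA2-titled and 6350 in C57BL/6J arrays and did not pass. Of the pair that rose, named after their values were seen, Klf2, which drives exit from lymphoid organs, rose by 0.39 and Igfbp4 by 0.37. With arrays centred on their medians 3 members fell and 1 rose, without DBA2-titled array 1 there were 4 and 0, without array 2 there were 3 and 1, and with the 7 arrays alone 4 and 0.

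In the list of the T cell receptor complex, which also holds other surface genes of T cells, 6 of 14 measured genes fell and none rose. With centring 3 fell. Of all genes 7.27 percent fell. The list median was -0.07, and -0.16 without DBA2-titled array 1 and 0.02 without array 2. The CD3 chain genes did not pass: Cd3e differed by 0.13, Cd3g by 0.20 and Cd3d by 0.30. Differences were positive for 7 of the 14 genes and negative for 7. Thy1, a surface glycoprotein of T cells, had 2460 and 2580 in DBA2-titled arrays, against 3750, 3820, 3970, 3730 and 3690 in C57BL/6J arrays (log2 difference -0.59, SE 0.11). Trat1, a transmembrane adaptor, fell by 0.73, and Cd247, the zeta chain, by 0.48. Ptprc, the phosphatase CD45, fell by 0.45 and Cd28 by 0.32, both lost with centring (adjusted p = 0.0741 and 0.174), and Cd247 was lost without DBA2-titled array 2 (adjusted p = 0.0653). Among 29 signalling genes 7 fell and 1 rose, with centring or without DBA2-titled array 2 it was 1 and 1, and without array 1 it was 3 and 0. Themis, which tunes receptor signals during thymic selection, had 1110 and 1240 in DBA2-titled arrays, against 1930 to 2070 in C57BL/6J arrays (log2 difference -0.77, SE 0.13).

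Among 28 cytokine receptor genes 3 rose, Il2ra and Il2rb above and Il6ra (0.26, chosen after its value was seen), and 3 fell, with 1 that rose and 3 that fell without DBA2-titled array 1. Il18r1, which lets T cells respond to interleukin 18, had 262 and 219 in DBA2-titled arrays, against 518, 610, 544, 529 and 540 in C57BL/6J arrays (log2 difference -1.19, SE 0.15). From other lists, Tnfsf8, the CD30 ligand, fell by 0.85. Itgb1, the integrin beta 1 chain, had 816 and 704 in DBA2-titled arrays, against 401, 381, 371, 418 and 366 in C57BL/6J arrays (log2 difference 0.97, SE 0.14). These 3 genes separated the groups without overlap, as 2500 of the 2591 called probe sets did, so this adds nothing to the calls. Pim1, a kinase induced by cytokine signals, averaged 1770 in DBA2-titled and 863 in C57BL/6J arrays, and Gimap7, a GTPase of lymphocytes, rose by 1.12. In the list of genes typical of activated or memory T cells, 3 of 37 rose and 7 fell, against 4 and 2 with centring. Its median was -0.01, and 0.01 without either DBA2-titled array. The counts of this list and of the cytokine receptors stand beside 2.94 percent of all genes higher and 7.27 percent lower.

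Single genes of innate recognition differed, while the list of innate sensors had a median difference of -0.06. Its calls below stand beside 10.2 percent of all genes. Klrd1, the CD94 chain of inhibitory and activating lectin-like receptors, had 104 and 90.1 in DBA2-titled arrays, against 362, 280, 346, 302 and 350 in C57BL/6J arrays (log2 difference -1.76, SE 0.19, adjusted p = 9.39e-10). Of 26 inflammasome and innate sensor genes 2 rose, Nlrp1a and Tlr6 (0.78), and 2 fell, Tlr7 by 0.79 and Tlr1 by 0.73, and Tlr6 did not pass without DBA2-titled array 1 (adjusted p = 0.055). Cd72, a receptor known from B cells, had 38.2 and 46.2 in DBA2-titled arrays, against 290, 244, 273, 262 and 225 in C57BL/6J arrays (log2 difference -2.62, SE 0.25), and it was the only one of 19 B cell markers past the threshold. Ms4a1 lay at 20.3 and 22.1 in DBA2-titled arrays and averaged 21.7 in C57BL/6J arrays. Cxcr2, a receptor of neutrophils, had 131 and 79.0 in DBA2-titled arrays, against 24.3 to 39.9 in C57BL/6J arrays, with a difference of 1.68, or 1.07 with the offset, while S100a8, at 27.6 and 27.8 in DBA2-titled arrays and 24.2 on average in C57BL/6J arrays, was dim in both groups. Chil3, the other neutrophil marker past the threshold, rose by 0.58. It had 40.3 and 23.9 in DBA2-titled arrays, against 16.9 to 26.5 in C57BL/6J arrays. With arrays centred it did not pass (adjusted p = 0.0806). Among other cell types, 1 of 8 CD8 T cell, 1 of 20 myeloid and 2 of 16 neutrophil markers were called. So were 2 of 14 natural killer and 2 of 13 dendritic cell markers, beside 10.2 percent of all genes. None of 6 erythroid or 7 platelet markers passed. These lists are too short for their shares to be compared.

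Few genes of the respiratory chain and the ribosome passed the threshold, beside 10.2 percent of all genes. Cox5b, a subunit of cytochrome oxidase, rose by 0.71 and was 1 of 2 called among 49 genes of oxidative phosphorylation. Of 35 ribosomal protein genes 1 was called, a probe set annotated to Rpsa, and 31 differences were positive. None of the 32 nearest probe set IDs lay on the annotated chromosome of the Rpsa probe set. Of 30 glutathione and xenobiotic genes 2 rose and 5 fell (2 and 1 without DBA2-titled array 2), led by Mgst2 (-0.86) and by a probe set annotated to Glo1, the glyoxalase gene, which had 1210 and 1070 in DBA2-titled arrays, against 355 to 514 in C57BL/6J arrays. None of the 33 nearest probe set IDs lay on the annotated chromosome of this probe set, and the second probe set of Glo1 differed by 1.31. In the cell cycle list 7 of 34 rose and 2 fell, and the 7 became 2 without DBA2-titled array 1, 4 without array 2 and 2 with the 7 arrays alone. E2f1, a transcription factor of the S phase entry, rose by 0.86 while Mcm6, a subunit of the replicative helicase, fell by 0.82. The adenosine-forming and purinergic list had 4 that rose and 3 that fell among 11, or 2 and 3 without DBA2-titled array 1: Ada, which breaks down adenosine, rose by 0.81 and P2rx7, an ATP-gated channel, by 0.65, whereas Entpd4 fell by 0.81 and Nt5e, which makes adenosine at the cell surface, by 0.66. P2rx7 did not pass with the 7 arrays alone (adjusted p = 0.0851) or Nt5e without DBA2-titled array 2 (adjusted p = 0.135).

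Genes that differed lay next to each other in several places. Along the gene order of GRCm38.p6, 2016 called genes were placed among 19732 measured ones, and 68 runs of 3 or more called neighbours held 223 of them. There were 11 runs of 4 or more. The run at the Ifi200 family held Ifi213, Ifi209, Ifi208, Ifi207 and Ifi203, of which Ifi207 alone was higher. Gbp8 lay in a run with Thoc2l, Zfp951 and Abcg3, with log2 differences of -1.24 to -2.32. Ccr9 lay in a run with Lztfl1, Fyco1 and the chemokine receptor gene Cxcr6, all lower. A pair of runs consisted of zinc finger genes that were all lower: Zfp87, Zfp748, Zfp729b, Zfp729a and Zfp738 in one, and Zfp54, Zfp51, Zfp53, Zfp52 and Zfp948 in the other. Such genes have close copies, so neighbouring probe sets may share targets.

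The longest runs held 6 genes. One, in the major histocompatibility complex region, joined Wdr46 (0.95), B3galt4 (0.67), Rps18 (0.51) and Vps52 (0.61), which were higher, with H2-K2 (-1.44) and AA388235 (-2.38), which were lower. For all 6, the mean of C57BLKS/J, a strain known to be derived from C57BL/6J and DBA stock, lay on the DBA2-titled side of the midpoint. The other joined Rc3h2, Zbtb6, Zbtb26, Rabgap1, Gpr21 and Strbp, with log2 differences of -0.38 to -1.21, with C57BLKS/J on the DBA2-titled side for 5. At the Ifi200 run and at the run with Gbp8, C57BLKS/J was on the C57BL/6J side for every gene. The remaining runs of 4 or 5 genes were Ltv1 to Pex3, Habp4 to Prxl2c, Brca2 to Pds5b and Micu3 to Mtmr7.

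The 38 other strain groups show which side of each difference was common. At the 237 probe sets at least 2-fold apart, a median of 16 other groups lay nearer the DBA2-titled mean than the C57BL/6J mean. At 35 of them (14.8 percent) at least 30 groups did, and at 63 (26.6 percent) at most 8 did. MRL/MpJ lay on the DBA2-titled side at 70.5 percent of these probe sets and BTBR T+ tf/J at 65.8 percent, the highest shares. C57BL/10J did so at 11.0 percent, the C57BR-titled arrays at 17.3 percent, C57L/J at 20.3 percent and C57BLKS/J at 29.5 percent, the lowest. The order changed over all 2591 called probe sets, where BTBR T+ tf/J had the highest share, 77.2 percent, with MRL/MpJ at 71.1 percent, the C57BR-titled arrays the lowest, 13.7 percent, C57BL/10J 37.4 percent and C57BLKS/J 38.9 percent. These shares share the DBA2-titled and C57BL/6J arrays and carry no test.

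**Figure D3:**
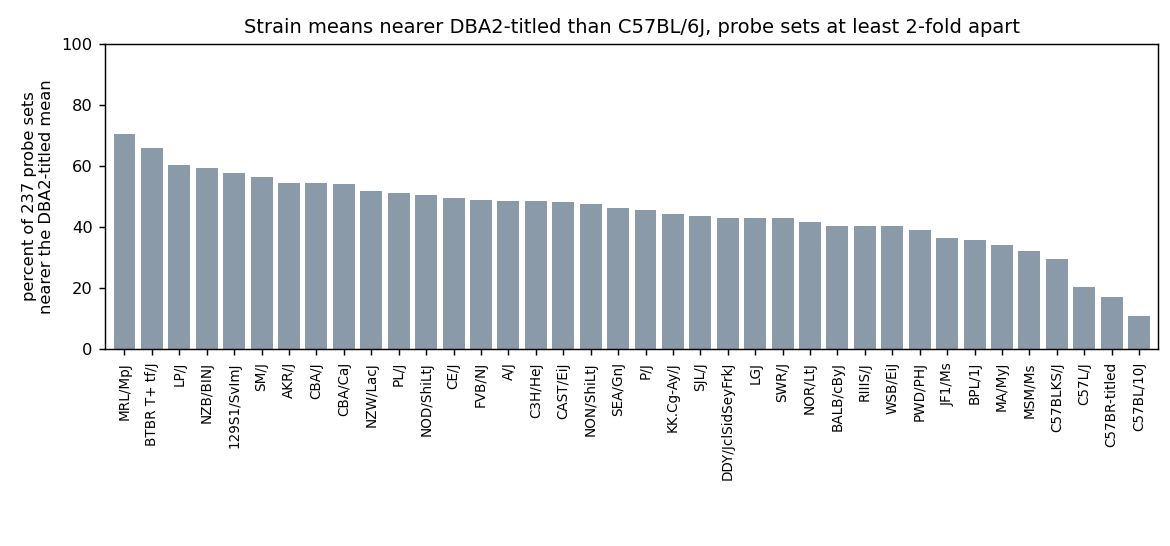
Percent of the 237 probe sets at least 2-fold apart at which each of 38 other strain groups (horizontal axis) lay nearer the DBA2-titled mean than the C57BL/6J mean (vertical axis, percent). Shares run from 70.5 percent in MRL/MpJ to 11.0 percent in C57BL/10J.

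For some leading genes C57BL/6J was the rarer type. Trav12-2 lay on the DBA2-titled side in 33 of the 38 groups, Rab6b in 32, and Acadl, Cpm and Arsb in 31 each. Ctse lay there in 26 groups, with a median of 5200 over the other groups beside 5670 in DBA2-titled and 682 in C57BL/6J arrays. Trim12a and Trim30d lay there in 25 groups each, with Trim12a at 52.2 as the median of the other groups and 1620 in MA/MyJ, the highest. For other genes the DBA2-titled arrays were the rarer type. Stab2 lay on their side in 2 groups, with SM/J at 1170 and a median of 87.9. Pls3 did so in 2 groups and Atp8b4 in 4, where the lowest was NON/ShiLtJ at 53.8.

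Set against the mean of the other 38 groups in the same fit, the DBA2-titled arrays differed at 2515 probe sets (10.1 percent), 1457 higher (5.85 percent) and 1058 lower (4.25 percent). The DBA2-titled arrays lay outside all 38 group means at 443 of these. The share over all probe sets is not given here, and single arrays were set against means, so this count is no finding. With arrays centred the 2515 calls became 1637, of which 30.9 percent were lower against 42.1 percent before. Calls also fell in number without either DBA2-titled array. Without array 1 more calls were lower than higher, and without array 2 more were higher than lower. The excess of higher calls thus depended on which DBA2-titled array was kept. This comparison shares the DBA2-titled arrays with the one against C57BL/6J.

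The genes below were chosen for DBA2-titled arrays that lie outside all other group means, so that position is no finding. Genes that overlapped other groups were left out, among them Stab2, which differed by 2.75 from the mean of the others, and Trim12a, which differed by -1.72. Atp8b4 was lowest of all groups (log2 difference from their mean -3.23, adjusted p = 6.06e-25). Tfpi, the inhibitor of tissue factor, had 52.1 and 49.9 in DBA2-titled arrays, against 85.7 in CAST/EiJ, the lowest other group, a median of 156 over the other groups, and 151 to 228 in C57BL/6J arrays. The log2 difference from the mean of the others was -1.62. Masp2, a protease of the complement system, averaged 67.8 in DBA2-titled arrays, against 153 as the median of the other groups and 89.3 in C57BL/6J. The transcription factor gene Zbtb20 (-1.04), Als2cl (-1.0), Zfp277 (-0.98), Phxr4 (-1.40) and Airn (-1.11) completed the 8 largest decreases among genes with DBA2-titled arrays below all other groups. Airn is a noncoding RNA antisense to Igf2r, and reads of overlapping genes were not separated here.

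Among the genes with DBA2-titled arrays above all other groups, Lrrc32 had the largest increase, 1.40 above the mean of the others (SE 0.12, adjusted p = 2.82e-12). Its DBA2-titled mean of 494 lay above that of every other group, the highest of which was C57BLKS/J at 328. Capg followed with 492 and 452 in DBA2-titled arrays, against 388 in LGJ, the highest other group, and a median of 216. Mlycd, malonyl-CoA decarboxylase, which relieves the brake on fatty acid oxidation, had 368 and 400 in DBA2-titled arrays, against 303 in SM/J, the highest other group, and 151 to 206 in C57BL/6J arrays. The respiratory chain genes Atp5e (0.97) and Uqcr11 (0.95), the RNA polymerase subunit gene Polr1c (0.85) and Itgb1 (0.81) were also above all other groups, and Uqcr11 did not pass without DBA2-titled array 1 (adjusted p = 0.0851). A probe set annotated to Ndufa11 (0.78) had none of its 37 nearest IDs on the annotated chromosome. Of the 35 ribosomal protein genes 19 were higher than in the other strains, and of 49 oxidative phosphorylation genes 11 were, with none lower. Of all probe sets 5.85 percent were higher. These list counts are not given without either DBA2-titled array. The mean log2 intensity of the ribosomal list was 12.06 and 11.96 on DBA2-titled arrays, against 11.53 to 11.92 in the other groups. C57BL/6J arrays had 11.79 to 11.91, in the upper part of that range and little below DBA2-titled array 2. The mean of the oxidative phosphorylation list was 9.85 and 9.66 on DBA2-titled arrays, against 9.21 to 9.76 in the other groups and 9.5 to 9.68 on C57BL/6J arrays. DBA2-titled array 2 thus lay within the range of the other groups for the second list.

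**Figure D4:**
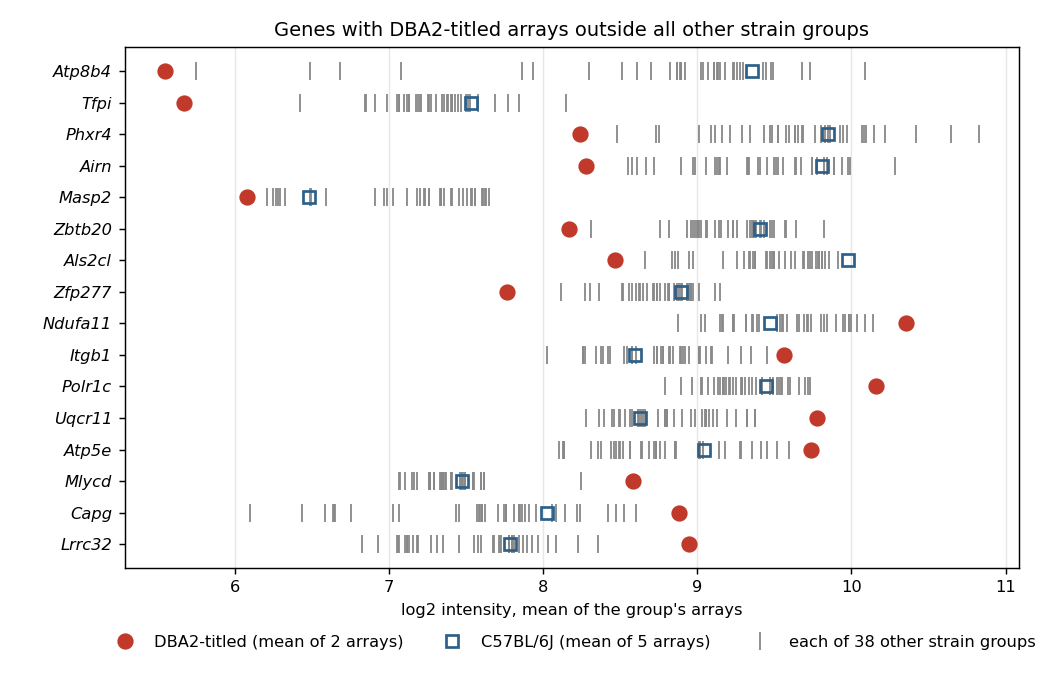
Mean log2 intensity (horizontal axis) of the 16 genes that the comparison with other strains named, with a filled circle for DBA2-titled arrays, an open square for C57BL/6J arrays and a tick for each of the 38 other strain groups. Genes were chosen for DBA2-titled arrays outside all ticks, and the differences from the mean of the others run from -3.23 in Atp8b4 to 1.40 in Lrrc32.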

How the data were processed

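Expression was read on 82 Affymetrix ST1.0 arrays, 2 of them DBA2-titled and 5 of C57BL/6J. The deposited table held linear intensities that the authors had made with RMA and Affymetrix Power Tools, per the submitters' processing notes; versions and the genome build are not given in the sources used here. RMA values carry no count or detection call, so depth is set by the number of arrays. The arrays' probes were designed on the reference genome, that of C57BL/6J; whether sequence differences under probes move single values was not tested.

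The log2 of each deposited intensity was used as it stood, without filter or renormalization. limma 3.58.1 in R 4.3.3 (lmFit with 1 coefficient for each of 40 strain groups, contrasts, eBayes) was fitted to all 82 arrays, with 42 residual and 8.09 prior degrees of freedom, with Benjamini-Hochberg adjustment across 24922 probe sets and a threshold of 0.05. The DBA2-titled group, with 2 arrays, borrows its error from the 40 groups. Each array is a separate pool of mice, so p-values measure the spread between pools. The fit was tested on simulated data.

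Symbols came from the platform annotation: 21425 probe sets had 1 symbol, 1399 several and 2098 none, and 21347 of the first matched the GRCm38.p6 gene table, used for gene order only. In lists a gene was read from its brightest probe set on average, and from its most significant one among the largest changes.

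Named were the 15 largest called differences each way against C57BL/6J and the 8 largest each way against the other strains (1 established symbol, the higher mean above the median of all values, no overlap), up to 4 called members per list, and runs of called neighbours. Foxp3, Ctla4, Aim2, Ifit2, Xaf1, Ifi27l2a, Klf2, Igfbp4, Il6ra, Gpnmb and members past no threshold were named outside this rule, after their values were seen. Members, lists and tests were chosen with earlier results of these data known.

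Alternatives were centring on array medians, quantile normalization, a filter on the dimmest 40 percent, an offset of 32, the 7 arrays alone, a trended and robust prior, the replicate number as a block, and leaving out each array in turn.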

Additional observations from a re-analysis of the deposited data

Results flagged for a closer look

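Among the C57BL/6J arrays, 138 sets of 5 values were searched for 1 array far from the rest, a search that flags about 1 in 20 sets by chance, and 7 were found. That is about the number that chance alone would give, so no single gene listed here is taken as a finding. In each case 1 array of 5 lay apart by Dixon's criterion. The median intensity of C57BL/6J array 5 was 141.8, above the 102.4 to 110.5 of the others. Xist was 49.2 on the same array, above 32.6 to 35.9. Trav12-2 was 98.5 on array 2, below 168 to 208. Eif2ak2 was 212 on array 3, above 166 to 171. Tnfsf8 was 431 on array 4, below 528 to 559. Entpd4 was 995 on array 1, below 1110 to 1130. The probe set annotated to Rpsa, a name in doubt, was 4270 on array 4, below 4870 to 5060. The group of 2 DBA2-titled arrays is too small for such a search.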

How the results depend on the processing

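Of the 126 genes that the naming rule gave and that passed the threshold, none changed sign under an alternative that tested it and 79 kept their call in all of them; genes named outside the rule were not run singly. Against C57BL/6J, the 2591 called probe sets became 1665 with arrays centred on their medians, and 1269 to 2576 when 1 array was left out, with the lowest counts, 1300 and 1269, without DBA2-titled arrays 1 and 2; the cause was not tested beyond the smaller number of arrays. The other counts were 3116 with quantile normalization, 2827 without the dimmest 40 percent, 2733 with the offset, 2636 with the trended and robust prior and 1738 with the 7 arrays alone. Against the other strains, the 2515 became 1637 with centring and 414 to 1434 without 1 of the DBA2-titled arrays. The replicate block gave 2321 calls against C57BL/6J and 2683 against the other strains. The labels do not say that a replicate number pairs arrays, and only 2 numbers are shared. The deviations of arrays with the same number correlated at 0.37 and 0.055, and those of arrays with different numbers at -0.58 to 0.58. DBA2-titled array 2 correlated at 0.53 with C57BL/6J array 5. The 2 DBA2-titled arrays deviate from their mean by opposite amounts, so each correlation of array 1 returns for array 2 with the sign reversed. These correlations therefore cannot decide whether the numbers pair the arrays. As the labels name no pairing, the numbers were not taken to pair them. Named calls were lost most often without DBA2-titled array 2 (35), without array 1 (32), with centring (21) and with the 7 arrays alone (18), and never with the offset, the robust prior or the filter on dim probe sets. With 2 arrays, a DBA2-titled mean cannot be separated from what these 2 pools shared, and values in the dim range of the array give no measure of absence.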

Other observations

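Other receptor families showed few differences, and their calls stand beside 10.2 percent of all genes. None of the 8 measured Ly6 genes passed the threshold. In the Slam family, Slamf6 fell by 0.38, Cd48 by 0.31 and Ly9 by 0.25, and none of these passed with arrays centred on their medians (adjusted p = 0.16, 0.172 and 0.25). Of 10 MHC class II pathway genes 2 were lower: H2-Ob had 365 and 369 in DBA2-titled arrays, against 726, 894, 780, 671 and 606 in C57BL/6J arrays (log2 difference -0.99), and H2-DMa fell by 0.70, a call lost without either DBA2-titled array (adjusted p = 0.0978 and 0.0846). H2-Aa, H2-Ab1 and Cd74 were near or below the median of all intensities in both groups.

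Immediate early and stress genes had 4 increases among 35, beside 10.2 percent of all genes called, 2.94 percent higher and 7.27 percent lower. The list median was 0.14, and 0.15 without either DBA2-titled array. Jund, an AP-1 subunit, had 1310 and 1250 in DBA2-titled arrays, against 794, 897, 800, 765 and 726 in C57BL/6J arrays (log2 difference 0.69, SE 0.14). The Y-linked gene Eif2s3y had 640 and 582 in DBA2-titled arrays, against 1060, 1120, 1170, 1010 and 1180 in C57BL/6J arrays (log2 difference -0.86), and did not pass without DBA2-titled array 2 (adjusted p = 0.0556). Of 24 genes with known variant alleles in DBA/2J or C57BL/6J, 2 rose and 4 fell, beside 2.94 percent of all genes higher and 7.27 percent lower. Gpnmb, one of them, had 48.0 and 51.7 in DBA2-titled arrays, against 64.3, 65.2, 73.2, 65.6 and 67.2 in C57BL/6J arrays, low in both groups (log2 difference -0.43, adjusted p = 0.00705). These values are given as a description and do not settle the substrain.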
